A study of Bos taurus with 15 samples.

Results

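MX1, MX2, OAS2 and RSAD2 are antiviral genes that cells switch on in response to interferon, and their messenger RNA was measured in the bovine endometrium on days 15 and 18 of the estrous cycle and of pregnancy. Their probes were found by gene name, by symbol in the probe description or by full gene name, without use of any measured value. Each gene had 1 probe, so that 4 of the 15208 probes other than control spots on the array belong to these genes, which are 4 of the 5946 genes named on the array. The gene name field of the array design gives MX1, MX2 and OAS2, and RSAD2, listed there under the older locus name LOC506415, was found through the symbol in its description.

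The tissue was caruncular endometrium of Japanese Black cows, taken from the uterine horn on the side of the corpus luteum. NP15 and NP18 are non-pregnant cows on days 15 and 18 of the cycle, and P15 and P18 are pregnant cows on days 15 and 18 of gestation, counted with insemination as day 1. The labels name no treatment, and pregnancy had been judged by eye from the presence of fetal trophoblast. RNA was hybridised to 1-colour Agilent arrays, with 4 arrays each for NP15, NP18 and P18 and 3 arrays for P15. The study describes 4 animals a stage, the labels give no animal for an array, and the replicate numbers below only name arrays. If arrays shared animals, the p-values would measure technical spread. The tissue held several cell types and trophoblast could adhere to it, so more RNA per cell and more cells of a type cannot be told apart.

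Interferon tau, secreted by the trophoblast of ruminants, is the signal by which the mother recognises the pregnancy. Like other type I interferons it binds the receptor chains IFNAR1 and IFNAR2, and a transcription complex that contains IRF9 then turns on interferon-stimulated genes in the endometrium. MX1 and MX2 are dynamin-like GTPases that trap viral components. OAS2 senses double-stranded RNA and makes oligoadenylates, which activate an RNase that degrades RNA. RSAD2, also called viperin, is a radical SAM enzyme that makes a nucleotide analogue able to stop viral RNA synthesis.

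The probe sequences are shown because each gene is read by 1 oligonucleotide, whose specificity every value below rests on. They are written from 5′ to 3′ as the array design gives them, and capitals mark the longest run shared with any other probe of the array, which had 11 bases for MX1, 14 for MX2, 15 for OAS2 and 12 for RSAD2.
MX1 (probe ABR167): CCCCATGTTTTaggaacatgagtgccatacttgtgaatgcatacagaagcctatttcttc
MX2 (probe ABR1411): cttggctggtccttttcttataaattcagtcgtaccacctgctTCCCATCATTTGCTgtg
OAS2 (probe A_73_119693): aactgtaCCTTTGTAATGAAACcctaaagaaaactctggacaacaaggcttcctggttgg
RSAD2 (probe A_73_109081): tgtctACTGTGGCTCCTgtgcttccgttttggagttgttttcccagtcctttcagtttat

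All 4 probes have 60 bases, and their GC content is 41.67% for MX1 and OAS2 and 45% for MX2 and RSAD2. The probes of the 4 genes shared at most 7 bases in a row with each other, and those of the neighbouring and related genes MX1 and MX2 shared 6. The probe that shares 15 bases with OAS2 had a mean log2 signal 0.38 lower in P18 than in NP18 (log2 difference -0.38), and the 2 probes that share 12 bases with RSAD2 differed by 0.23 and 0.49. The probe that shares 14 bases with MX2 was too dim to be tested, and the 13 tested probes that share 11 bases with MX1 differed by -0.92 to 0.61. In the RefSeq gene table, MX2 and MX1 lie next to each other, OAS2 lies next to OAS1Y, and RSAD2 lies next to CMPK2. OAS1Y and CMPK2 were not on the array under those symbols. The position of each probe within its transcript was not determined here.

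A signal below is the background-corrected signal divided by the median over the 15208 probes of the same array, so that a value of 1 is the array's typical probe. Levels are compared between arrays for 1 probe and never between probes. Scanner flags marked a spot as well above background or not, and 65.6% to 88.3% of probes were well above background per array. The median raw signal ranged from 315 to 838. The lowest raw signal well above background ran from 9.60 to 28.3 on day 15 and from 53.5 to 75.03 on day 18. A dim probe therefore needed a higher raw signal on day 18 to stand well above background. Each of the 9 slides held 1 group, and so did each of the 6 scan days, with NP15 spread over 3 days and every other group on 1 day. Scan day and group can therefore not be told apart by a comparison within a day. No member spot was saturated or marked as an outlier. Markers of epithelium (EPCAM) and stroma (VIM and COL1A1) were well above background in all 15 arrays.

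On day 18, MX1, MX2, OAS2 and RSAD2 were all higher in pregnant than in non-pregnant endometrium, by 12.6-fold to 73.0-fold, and no array of the groups overlapped. The signal of MX1 was 417, 427, 478 and 315 array medians in P18 replicates 1 to 4, and 31.5, 43.0, 33.0 and 23.9 in NP18 replicates 1 to 4. Its lowest P18 array lay far above its highest NP18 array. The log2 fold change of MX1 was 3.65 ± 0.37 (SE), with an adjusted p of 4.8e-05 by limma. Adjusted p-values here and below are Benjamini-Hochberg values over the 13164 probes flagged as clearly brighter than background on 3 or more arrays, and a gene was called changed at an adjusted p under 0.05 and a fold change over 2.

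MX2 was dim in the non-pregnant endometrium and bright in P18. Its signal was 4.37, 5.68, 7.34 and 3.35 in P18 replicates 1 to 4, against 0.0868, 0.0685, 0.0665 and 0.0714 in NP18. MX2 was well above background in 4 of 4 P18 arrays and in 2 of 4 NP18 arrays, replicates 1 and 4. The log2 fold change was 6.09 ± 0.56 (SE), or 68.2-fold, with a limma adjusted p of 2.9e-05. Because the NP18 level lies near the background, this fold depends on how the background is treated, and it was 4.70 on the log2 scale with a model-based (normexp) background correction and 4.79 when all dim signals were raised to 1 common floor, a setting chosen after seeing the data. MX2 remained called under both.

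OAS2 had the largest fold change of the 4 genes with median-scaled signals. The signal was 8.51, 13.8, 15.8 and 6.11 in P18 replicates 1 to 4 and 0.125, 0.154, 0.0681 and 0.305 in NP18. OAS2 was well above background in 4 of 4 P18 arrays and 3 of 4 NP18 arrays, not in replicate 3. Its log2 fold change was 6.19 ± 0.60 (SE), or 73.0-fold, with a limma adjusted p of 3.2e-05, and it was 5.21 with normexp background correction. The SEs of MX2 and OAS2 cover each other's estimates, so the order of these 2 fold changes was not settled, and MX1 was the gene with the smallest of the 4 fold changes.

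RSAD2 was well above background in every array of every group. Its signal was 13.5, 13.2, 17.04 and 5.92 in P18 replicates 1 to 4 and 0.224, 0.368, 0.335 and 0.172 in NP18. P18 replicate 4 was the lowest P18 array, and it still lay above every NP18 array. The log2 fold change of RSAD2 was 5.46 ± 0.48 (SE), or 44.2-fold, with a limma adjusted p of 2.6e-05, and it was 4.85 with normexp background correction.

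All 4 genes were thus called higher on day 18, where 3.65% of all tested probes were called higher and 5.75% were called in either direction. All 4 had every P18 array above every NP18 array, a separation found for 10.5% of tested probes. An exact two-sided permutation test on each gene gave p = 0.0286, the smallest p that 4 against 4 arrays allow.

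**Figure D1:**
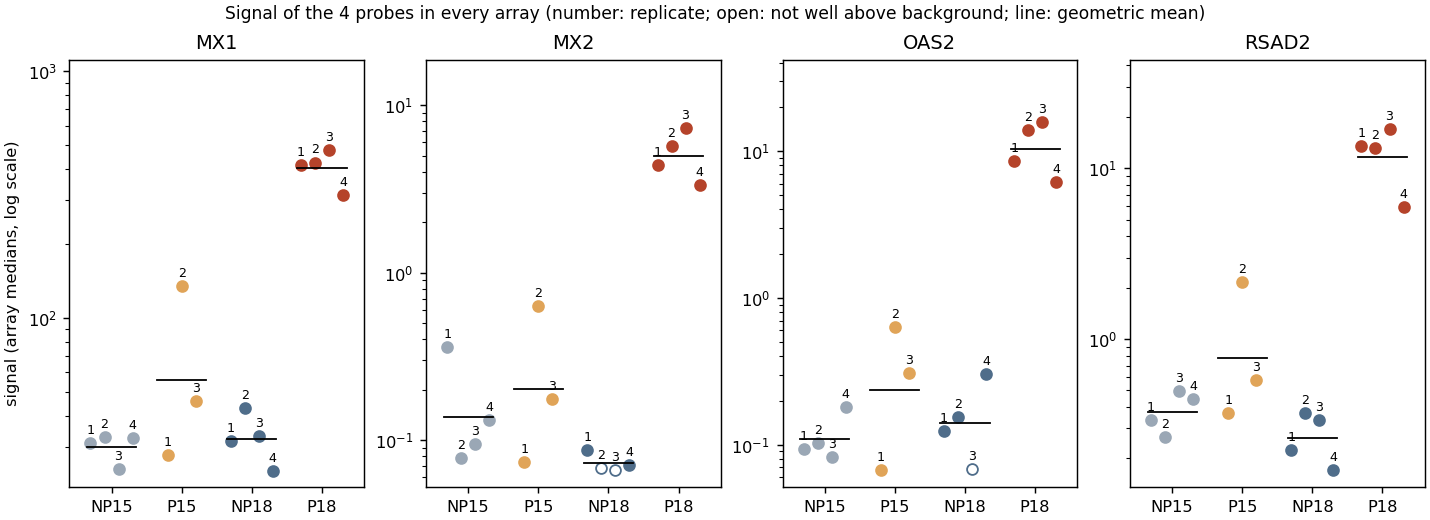
Signal of MX1, MX2, OAS2 and RSAD2 in each of the 15 arrays, in array medians on a log axis with its own range per gene. Each point is an array with its replicate number, open points were not well above background, and the line is the geometric mean of the group. The P18 arrays lie above all other arrays for each gene, and P15 replicate 2 is the highest array outside P18.

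On day 15 no difference between pregnant and non-pregnant endometrium passed the test for any of the 4 genes, and 1 of the 3 pregnant arrays stood well above the non-pregnant ones. MX1 had signals of 27.8, 134.8 and 46.0 in P15 replicates 1 to 3 and of 31.0, 32.9, 24.3 and 32.6 in NP15 replicates 1 to 4. MX2 had 0.0736, 0.631 and 0.176 in P15 and 0.358, 0.0778, 0.0949 and 0.132 in NP15. For both genes P15 replicate 2 was above every NP15 array and P15 replicate 1 was among or below them.

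OAS2 had signals of 0.0678, 0.637 and 0.308 in P15 replicates 1 to 3 and of 0.0936, 0.104, 0.0827 and 0.181 in NP15 replicates 1 to 4. RSAD2 had 0.370, 2.14 and 0.576 in P15 and 0.334, 0.266, 0.494 and 0.445 in NP15. P15 replicates 2 and 3 were above all NP15 arrays for MX1, OAS2 and RSAD2, whereas for MX2 NP15 replicate 1 lay above P15 replicate 3. The groups overlapped for each gene.

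The log2 fold change between P15 and NP15 was 0.89 ± 0.40 (SE) for MX1, with a limma adjusted p of 0.313. It was 0.56 ± 0.60 for MX2 (limma adjusted p = 0.716), 1.11 ± 0.64 for OAS2 (limma adjusted p = 0.440) and 1.04 ± 0.52 for RSAD2 (limma adjusted p = 0.360). The 95% confidence interval reached from 0.04 to 1.75 for MX1, from -0.73 to 1.85 for MX2, from -0.27 to 2.49 for OAS2 and from -0.06 to 2.15 for RSAD2. The exact two-sided permutation p was 0.229 for MX1 and RSAD2, 0.571 for MX2 and 0.286 for OAS2, with 0.0571 the smallest that 3 against 4 arrays allow. With normexp background correction the day 15 value was 0.06 for MX2 and 0.48 for OAS2, and with array weights it was 0.45 for MX1. None of the 4 was called, where 0.798% of tested probes were called in either direction.

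These day 15 estimates rested on P15 replicate 2. Its signal was 4.50 times the geometric mean of NP15 for MX1, 4.61 times for MX2, 5.80 times for OAS2 and 5.74 times for RSAD2. In P15 replicate 1 the same ratios were 0.929, 0.538, 0.617 and 0.991, and in P15 replicate 3 they were 1.54, 1.28, 2.81 and 1.54. Without P15 replicate 2 the log2 fold change was 0.26 for MX1, -0.27 for MX2, 0.40 for OAS2 and 0.31 for RSAD2. Without P15 replicate 1 it was 1.39, 1.28, 2.01 and 1.57 in the same order, and none passed the test either way.

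The 4 genes ordered the 3 P15 arrays alike, with replicate 2 highest and replicate 1 lowest. This order was shared by 18.0% of the tested probes. An array signal over 4-fold above the NP15 mean and above every NP15 array in P15 replicate 2, which all 4 genes had, was found for 103 probes (0.782%). In P18, all 4 genes were highest in replicate 3 and lowest in replicate 4, an arrangement that 17.3% of tested probes had. In NP15 and NP18 the 4 genes did not share a highest or a lowest array.

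The difference between the 2 effects of pregnancy was tested as an interaction. The log2 fold change of pregnancy was larger on day 18 than on day 15 by 2.76 ± 0.54 (SE) for MX1, 5.53 ± 0.82 for MX2, 5.08 ± 0.88 for OAS2 and 4.42 ± 0.71 for RSAD2. The limma adjusted p was 0.0189, 0.00921, 0.0128 and 0.00949 in this order, and all 4 were called, against 2.07% of tested probes called in this direction. Without P15 replicate 1 the difference was 2.26, 4.81, 4.18 and 3.89, and MX1 lost its call (limma adjusted p = 0.0564). MX1 lost it also without P15 replicate 3 (2.62, limma adjusted p = 0.0528), and without P15 replicate 2 the differences were 3.40, 6.36, 5.79 and 5.16. The interaction of MX2 was 4.43 with the common floor and 4.64 with normexp, still called. With scan day as a random block, none of the 4 interactions passed (limma adjusted p = 0.618 for MX1 and 0.514 for the other genes).

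Within pregnancy, the 4 genes were higher on day 18 than on day 15, by a log2 fold change of 2.86 for MX1, 4.63 for MX2, 5.45 for OAS2 and 3.91 for RSAD2. The limma adjusted p was 0.000909, 0.000700, 0.000517 and 0.000741, and all 4 were called, against 7.58% of tested probes called higher. No array of the 2 groups overlapped for any of the 4, as for 26.7% of tested probes, and the exact two-sided permutation p was 0.0571, the smallest possible. The lowest P18 array exceeded the highest array of any other group by 2.34-fold for MX1, 5.32-fold for MX2, 9.59-fold for OAS2 and 2.76-fold for RSAD2, and that highest array was P15 replicate 2 each time. Without P15 replicate 2 the log2 fold changes were 3.50, 5.45, 6.16 and 4.65, and without P15 replicate 1 they were 2.36, 3.90, 4.54 and 3.38, with all 4 genes called in both cases. With scan day as a random block none passed (limma adjusted p from 0.0877 for OAS2 to 0.109 for MX1). Between P18 and NP18 all 4 kept their call under that block (limma adjusted p from 0.0141 for RSAD2 to 0.0235 for MX1). P15, NP18 and P18 were each scanned on 1 day, so the block cannot separate scan day from group in either comparison.

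Between the non-pregnant groups none of the 4 genes was called, where 7.16% of tested probes were. The log2 difference of NP18 from NP15 was 0.10 for MX1 (limma adjusted p = 0.887), -0.91 for MX2 (0.304), 0.37 for OAS2 (0.725) and -0.51 for RSAD2 (0.514). The exact two-sided permutation p for MX2, 0.0571, was above the smallest possible for 4 against 4 arrays. The groups overlapped for all 4 genes. By mean log2 signal, the order from low to high was NP15, NP18, P15, P18 for MX1 and OAS2 and NP18, NP15, P15, P18 for MX2 and RSAD2, and P15 and P18 were the neighbours in this order that differed beyond their spread. The arrays of NP15 and NP18 overlapped, as did those of P15 and of the non-pregnant group next below it.

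**Figure D2:**
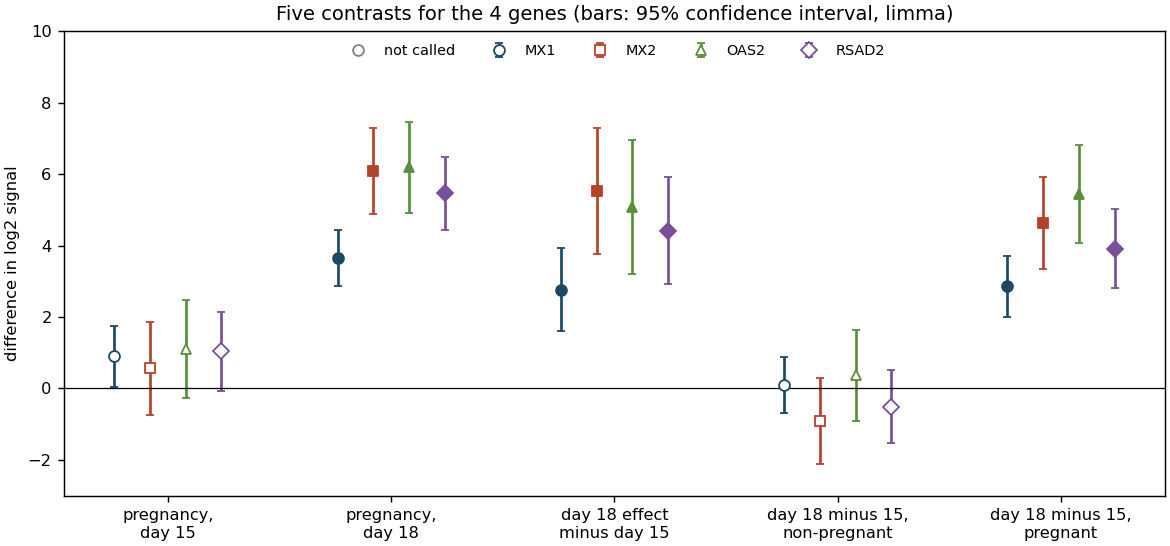
Differences in log2 signal for the 4 genes in each of the 5 contrasts, with 95% confidence intervals from limma. Filled symbols were called, and the day 15 and non-pregnant contrasts hold only open symbols.

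Other genes of the interferon pathway were called on day 18. A list of 134 interferon pathway genes other than these 4 had 52 genes on the array, of which 49 were tested. It was chosen with earlier results of these data known, so its counts are a description and no independent support. On day 18, 26 of the 49 were called higher and 2 lower in pregnancy, against 3.65% of all tested probes called higher and 5.75% called either way. Their median log2 fold change was 1.40, whereas that over all tested probes was 0.07. On day 15 none of the 49 was called, where 0.798% of all tested probes were, so this count is near the background and is no result about them. Their day 15 median was 0.09 against -0.06 over all probes. By role, the day 15 medians ran from -0.46 for the 6 tested ligands to 1.09 for the 2 tested relatives of OAS2. That of 17 other antiviral effectors was 0.44, with 11 of the 17 above 0. The interaction was called for 18, all with a larger effect on day 18, against 2.07% of all tested probes called in this direction.

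Among the ligands, both interferon tau probes on the array, IFNT2 and IFN-TAU-C1, rose in P18. The signal of IFNT2 was 0.0367, 10.9, 8.26 and 66.2 in P18 replicates 1 to 4, and that of IFN-TAU-C1 was 0.0978, 19.5, 16.8 and 116.9. Both were well above background in P18 replicates 2, 3 and 4 and in no NP18 or P15 array, and IFNT2 was also so in NP15 replicate 3, at 0.0414. Between P18 and NP18 the log2 fold change was 7.53 for IFNT2 (limma adjusted p = 0.00948) and 8.52 for IFN-TAU-C1 (limma adjusted p = 0.00337). As a bound without a test, each NP18 array was taken at its lowest signal well above background or the probe's own signal, whichever was higher. By this bound IFNT2 was at least 46.7-fold higher in P18 and IFN-TAU-C1 at least 95.03-fold. The 2 probes have near-identical family members that they may also detect. The other 4 tested ligands, IFNAA, IFNAC, IFNW1 and IFNG, were well above background in at most 2 of 4 P18 arrays and were not called, with log2 fold changes from 1.09 to 1.40, and IFNB1 was too dim to be tested.

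None of the 4 tested receptor chains rose. IFNAR2, 1 of the 2 chains that bind type I interferons, had a log2 fold change of -0.25 (limma adjusted p = 0.538), and the interferon gamma receptor chains IFNGR1 and IFNGR2 had -0.31 and 0.15. IFNAR1, the other type I chain, was called lower (limma adjusted p = 0.0179), and was well above background in 2 of 4 NP18 arrays and in no P18 array, at least 1.04-fold lower. Of the signal carriers behind the receptor, IRF9 rose (log2 fold change 3.17) and STAT3 did not pass (0.59, limma adjusted p = 0.169).

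Among 4 interferon regulatory factors IRF5 rose (1.21), and IRF2 had the smallest value (0.35, limma adjusted p = 0.436). Of 3 feedback inhibitors USP18, which removes ISG15 from proteins and dampens receptor signalling, rose by 4.99 on the log2 scale, and PIAS1 had -0.21 (limma adjusted p = 0.737). Of 10 tested sensors and adaptors 4 rose, with the RNA sensor RIGI the highest at 4.21 and the kinase IKBKE the lowest at -0.21 (limma adjusted p = 0.730). TLR7, among the 4, was well above background in 4 of 4 P18 arrays and 0 of 4 NP18 arrays, at least 1.92-fold higher. The relatives of OAS2 were split, since OAS1X rose by 4.97 and OASL did not pass (0.77, limma adjusted p = 0.399). The OAS1 genes are close copies of each other, so the OAS1X probe may read more than 1 of them. Of 17 other antiviral effectors 15 rose, with the ubiquitin-like modifier ISG15 the highest at 5.74. LGALS9, among these 15, was well above background in 1 of 4 P18 arrays and 0 of 4 NP18 arrays, at least 1.14-fold higher. SAMHD1, which degrades deoxynucleotides, fell by 1.07 on the log2 scale (log2 fold change -1.07, limma adjusted p = 0.0148).

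**Figure D3:**
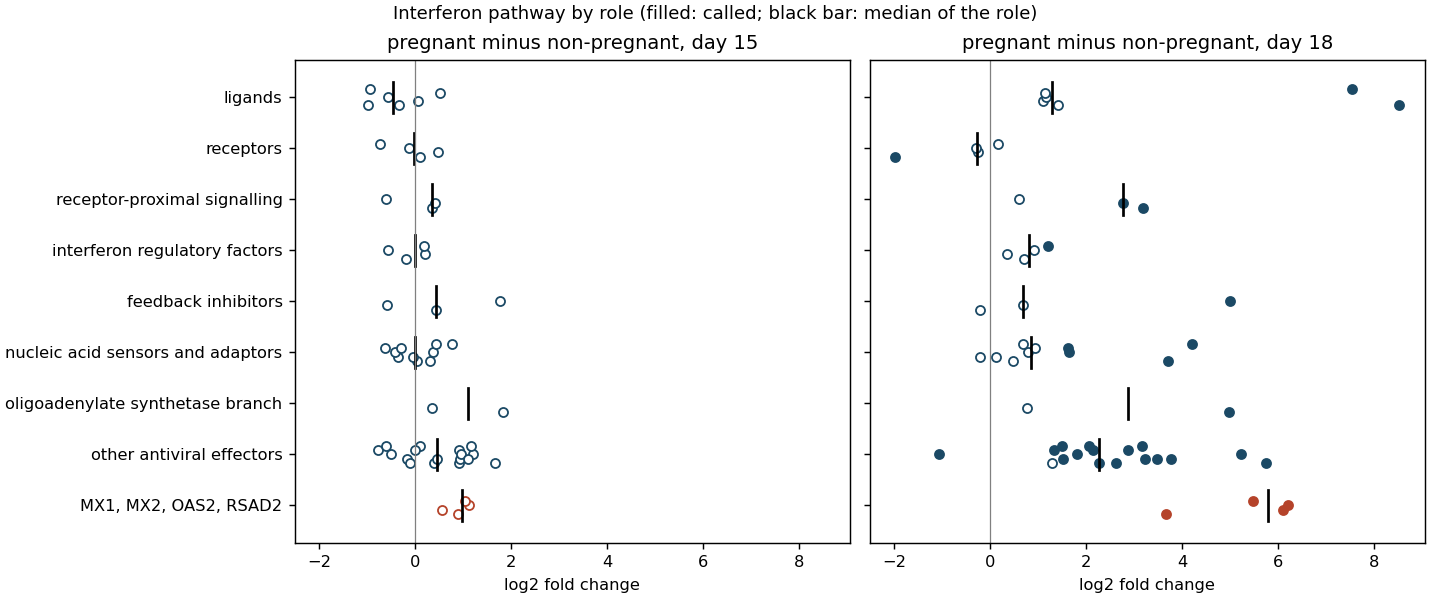
Log2 fold change of pregnancy on day 15 (left) and day 18 (right) for the 49 tested genes of the interferon pathway by role, with MX1, MX2, OAS2 and RSAD2 in the bottom row. Each point is a gene, filled where it was called, and black bars are medians. On day 15 no point is filled, and on day 18 most filled points lie to the right of 0, with IFNAR1 and SAMHD1 to the left.

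Proteins that share a fold or chemistry with the 4 genes but are not known as interferon targets were also listed. Of 32 such genes 13 were tested, and 1 of them was called higher on day 18, where 3.65% of all tested probes were, so this count is near the background and is no result about them. This was TENT2, a poly(A) polymerase grouped with OAS2 as a nucleotidyltransferase (log2 fold change 1.44, limma adjusted p = 0.00969). TRNT1, in the same group of 4, had -0.76 (limma adjusted p = 0.247). None of 6 genes of the dynamin superfamily, the relatives of MX1 and MX2, was called, from EHD2 at -1.02 to ATL1 at 1.06, with a median of -0.01. None of 3 radical SAM enzymes, the relatives of RSAD2, was called, from MOCS1 at -0.29 to LIAS at 0.49.

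The profile of each gene over the 15 arrays was compared with 5501 other named probes, by the root mean square difference of log2 signals after each probe was centred on its own mean. The nearest probes to MX1 were RIGI at 0.33, XAF1 at 0.37 and RTP4 at 0.41 log2 units. Those nearest to MX2 were IFIT3 (0.69), ISG15 (0.71) and RIGI (0.85), those nearest to OAS2 were ISG15 (0.82), IFIT3 (1.02) and RIGI (1.12), and those nearest to RSAD2 were IFIT3 (0.49), ISG15 (0.61) and RIGI (0.67). All of these 5 genes are interferon-stimulated. Between the 4 genes themselves the distance ran from 0.65 for MX2 and RSAD2 to 1.33 for MX1 and OAS2, and the related genes MX1 and MX2 were 1.05 apart. The measure depends on the size of the changes, and the arrays share the group structure.

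Trophoblast markers were also high in 3 of the 4 P18 arrays, and their part in the result was not tested. The summed signal of 18 trophoblast markers was 0.626 to 1.504 array medians in NP15, 0.954 to 1.78 in P15 and 1.46 to 2.84 in NP18. In P18 it was 1.54, 162.2, 102.7 and 765 in replicates 1 to 4. ELF5 and TFAP2C made up most of the NP18 sums, and ELF5 was called lower in P18. Without these 2 markers, a choice made after seeing the data, the sum was 0.414 to 0.616 in NP18 and 1.01 in P18 replicate 1, above every NP18 array and below the highest NP15 array (1.19). Of the markers left in this sum, only TKDP4 was well above background in P18 replicate 1. The lowest signal well above background was 0.138 array medians there and 0.066 to 0.095 in NP18. The part of dim probes in this difference was not tested. In P18 replicates 1 to 4, 2, 12, 10 and 13 of the 18 markers were well above background, and the defining marker TKDP1 was so in replicates 2 to 4. CDX2, also a defining marker, was well above background in 0 of 4 P18 arrays, 0 of 4 NP18 arrays and 3 of 3 P15 arrays. It was not called on day 18 (log2 fold change 1.32, limma adjusted p = 0.120). TKDP4, a trophoblast Kunitz domain protein, was well above background in P18 replicate 1 at 0.271, in no NP18 array and in 1 array each of NP15 and P15. Of the 14 tested markers, 8 were called higher and 1 lower on day 18, and the 2 interferon tau probes are among the 18.

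In P18 replicate 1, where the trophoblast sums were far below those of the other P18 arrays and neither interferon tau probe was well above background, the 4 antiviral genes were far above the NP18 arrays. MX1 was 13.0 times, MX2 59.9 times, OAS2 60.2 times and RSAD2 51.6 times the geometric mean of NP18 there. P18 replicate 4 had the highest trophoblast sum and the lowest P18 signal of each of the 4 genes, at 9.80, 46.0, 43.2 and 22.6 times the NP18 mean. Without P18 replicate 1 the log2 fold change between P18 and NP18 was 3.64 for MX1, 6.15 for MX2, 6.28 for OAS2 and 5.39 for RSAD2. P15 replicate 2, the array with the highest day 15 signals of the 4 genes, had a trophoblast sum of 1.17, between those of the other 2 P15 arrays, and the lowest of the 3 (0.317) without ELF5 and TFAP2C.

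Leukocyte markers, 19 on the array, summed to 21.5 to 32.4 in NP18 and to 30.3 to 158 in P18. The highest sum, in P18 replicate 3, was mostly GZMB, a granzyme, at 125. Without GZMB, a choice made after seeing the data, the sum was 9.68 to 15.7 in NP18 and 21.6, 24.1, 33.5 and 17.0 in P18 replicates 1 to 4. Every P18 array was then above every NP18 array, as for 10.5% of tested probes, a share of single probes and not of sums. The highest and the lowest P18 arrays, replicates 3 and 4, were then those of the 4 antiviral genes, an order that 17.3% of tested probes had. AIF1, the marker with the highest P18 mean in this sum, had 2.21 to 5.33 in NP18 and 7.38 to 16.2 in P18. How far the separation rested on AIF1 was not tested. With all 19 markers the groups overlapped, and the lowest P18 array was replicate 1 (30.3). In P15 replicate 2 the sum was the lowest of its group with and without GZMB, at 18.3 and 11.8. None of the 17 tested leukocyte markers was called on day 18, where 5.75% of all tested probes were, and 15 of the 17 had a log2 fold change above 0, with a median of 0.68 against 0.07 over all probes. Among these 15, NKG7, GZMA, NCR1 and MS4A1 were well above background in no P18 and no NP18 array, so their differences lie at the background. Of the defining markers, CD14 had 0.82, CD3E 0.68 and PTPRC -0.20, and PTPRC was well above background in 0 of 4 P18 arrays.

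Some other cell type markers differed between P18 and NP18 too. Over all 13164 tested probes, 276 were called lower on day 18, and 5.75% were called in either direction. Of 4 smooth muscle markers ACTA2 (log2 fold change -3.90, limma adjusted p = 0.00191) and CNN1 (-2.69, limma adjusted p = 0.00630) were called lower, with a median of -1.91 over the 4. The defining smooth muscle marker DES was not called (-1.13, limma adjusted p = 0.095). Of 9 stromal markers COL1A1 was called lower (-1.97, limma adjusted p = 0.00759), with a median of -0.35, and of 6 endothelial markers PECAM1 was (-1.54, limma adjusted p = 0.0148), with a median of -0.38. The other defining markers were not called, VIM of stroma (-0.91, limma adjusted p = 0.0746) and CDH5 of endothelium (-0.008, limma adjusted p = 0.992). None of 9 epithelial markers was called on either day. On day 15, 0 of the 9 had a log2 fold change above 0, with a median of -0.78 against -0.06 over all probes. Their summed signal was 105 to 141 in P15 and 163 to 305 in NP15, without overlap. On day 18, 5 of the 9 were above 0, and the sum was 254 to 384 in P18 and 120 to 417 in NP18. HBB, the defining erythroid marker, was well above background in no array. The part of any of these cell types in the levels of the 4 genes was not tested.

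**Figure D4:**
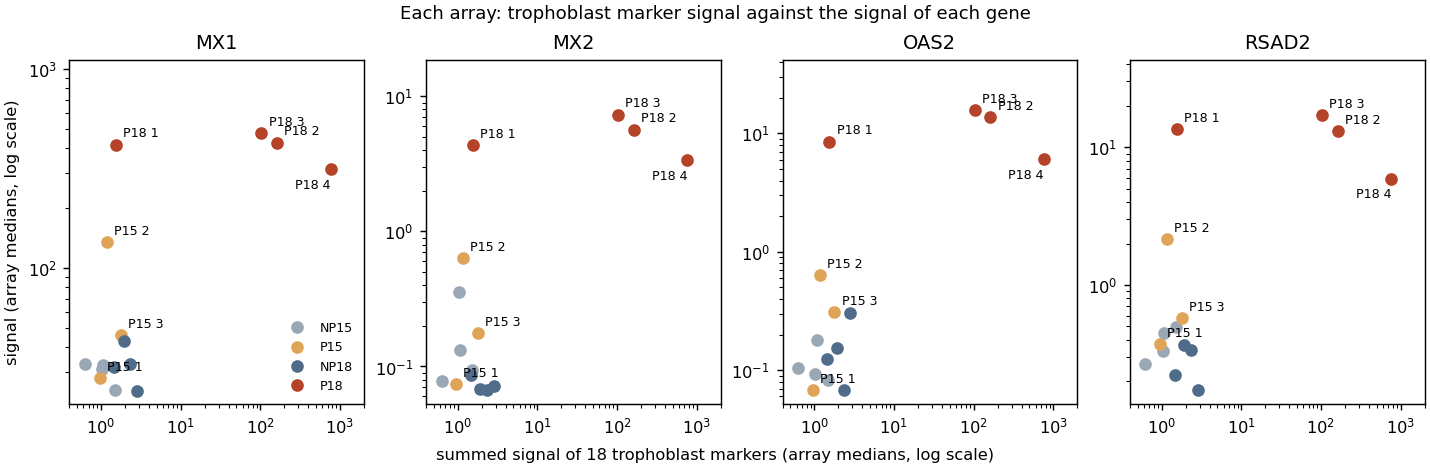
Summed signal of 18 trophoblast markers (x axis) against the signal of MX1, MX2, OAS2 and RSAD2 (y axis) in each of the 15 arrays, both in array medians on log axes, with pregnant arrays named. P18 replicate 1 has a marker sum of 1.54, far below the other P18 arrays, and lies with them on the y axis. The sums of NP18 consist mostly of ELF5 and TFAP2C.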

How the data were processed

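Endometrial RNA of 15 samples was measured on 1-colour Agilent arrays of 15744 spots, deposited by the authors as scanner intensity (Feature Extraction 9.5) with a log2 value table (GeneSpring 12, per the submitters' processing notes). The deposited intensity was the processed signal, already background-corrected by the scanner software, and the authors' deposited log2 table equals that signal scaled to about the 75th percentile of each array. The replicate number of each array comes from the labels.

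Here the processed intensity was divided by the array median over 15208 probes, the scaling named in the study's methods, and log2 values were fitted with limma 3.58.1 (R 4.3.3), with 1 mean per group over all 15 arrays. Tested were 13164 probes well above background in at least 3 arrays. Single genes were also compared by exact permutation tests (scipy 1.17.1). The fit was checked on simulated data. The number of arrays limits the precision.

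Genes named in the text are the 4 members, every ligand and receptor, the 3 nearest profiles per member and the defining cell type markers on the array. Per role of the pathway and relatives lists, the genes with the largest and smallest change on day 18 are also named. TKDP4, ELF5, TFAP2C, GZMB, AIF1, NKG7, GZMA, NCR1, MS4A1, ACTA2, CNN1, TLR7 and LGALS9 were named after their values were seen. Members and gene lists were chosen with earlier results of these data known. The RefSeq table (ARS-UCD2.0) gave a symbol to 4527 probes, and 6176 had 1 known symbol in all. Alternatives were other scalings, background corrections, filters, variance models, blocks, the methods' t-test, the authors' table and leaving out each array.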

Additional observations from a re-analysis of the deposited data

Results flagged for a closer look

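For each of the 4 genes the interaction test of limma on median-scaled signals called a larger pregnancy effect on day 18 than on day 15. With scan day as a random block none of the 4 passed, and scan day coincides with group except in NP15. MX1 also lost its call without P15 replicate 1 or without P15 replicate 3. The log2 fold change on day 18 exceeded that on day 15 by 2.758 for MX1, 5.534 for MX2, 5.08 for OAS2 and 4.421 for RSAD2. In NP15, NP18 and P18, 12 sets of 4 arrays were examined for an array far from the others, and none passed Dixon's critical value, while P15 with 3 arrays could not be examined in this way.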

How the results depend on the processing

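Between P18 and NP18 all 4 genes kept their direction and call under every alternative in which they were tested, with log2 fold changes of 3.48 to 3.72 for MX1, 4.70 to 6.16 for MX2, 5.21 to 6.46 for OAS2 and 4.85 to 5.46 for RSAD2, and of 3.51 to 3.79, 5.90 to 6.28, 5.84 to 6.56 and 5.26 to 5.79 when 1 array was left out. The methods' t-test called all 4 on day 18 and none on day 15, without adjustment and after Benjamini-Hochberg adjustment. With probes required to be well above background in all arrays, MX2 and OAS2 were not tested, and 2 of 4 were called for P18 against NP18, for the interaction and for P18 against P15.

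With scan day as a random block, the interaction was 2.75 for MX1, 5.49 for MX2, 5.10 for OAS2 and 4.47 for RSAD2 and P18 against P15 was 2.86, 4.63, 5.45 and 3.91, with 0 of 4 called by limma in both. That block called 0 probes in all for the interaction and for P18 against P15 by limma, with 844 and 1726 at an unadjusted p under 0.05. The cause was not tested. Day and group coincide except in NP15, so the block cannot separate them, nor for P18 against NP18, where all 4 kept their call.

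On day 15, with 1 array left out at a time, the values ran from 0.26 to 1.39 for MX1, from -0.27 (without P15 replicate 2) to 1.28 for MX2, from 0.40 to 2.01 for OAS2 and from 0.31 to 1.57 for RSAD2. For the interaction they ran from 2.26 to 3.40, 4.81 to 6.36, 4.18 to 5.79 and 3.89 to 5.16, and for P18 against P15 from 2.36 to 3.50, 3.90 to 5.45, 4.54 to 6.16 and 3.38 to 4.65.

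NP18 against NP15 changed sign for MX1 with the 75th percentile (-0.0185), quantile normalization (-0.003), the authors' table (-0.0174) and without NP18 replicate 2 (-0.0374), for OAS2 with normexp (-0.0369) and without NP18 replicate 4 (-0.0036), and for RSAD2 with array weights (0.0457). None was called. With 1 array left out at a time these values ran from -0.0374 to 0.24 for MX1, -1.18 to -0.44 for MX2, -0.0036 to 0.72 for OAS2 and -0.67 to -0.31 for RSAD2.

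With the replicate number as a block, P18 against NP18 stayed at 3.65, 6.09, 6.19 and 5.46, and no call of the 4 genes changed in any contrast. Deviations of arrays with the same number correlated between -0.26 and 0.30 over 21 pairs, with 3 over 0.1. Arrays with different numbers were not compared in this way, so this cannot settle whether the numbers pair the arrays.

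Counts over all probes moved more than the 4 genes. On day 15, 105 probes were called, from 0 (scan day block, 692 unadjusted) to 1004 (array weights), on day 18 757, from 49 to 1421, for the interaction 358, from 0 to 1499, between the non-pregnant groups 942, from 54 to 1744, and between the pregnant groups 1566, from 0 to 3080. With 1 array left out at a time they ran from 4 to 344, 428 to 1043, 59 to 549, 616 to 1565 and 737 to 1730. MX2 and OAS2 were well above background in 2 and 3 of 4 NP18 arrays, which limits their folds over NP18.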
